A study of Mus musculus with 24 samples.

Results

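DNA methylation was examined at 10 genes tied to cellular senescence and longevity, Cdkn2a, Cdkn2b, Cdkn1a, Trp53, Rb1, Tert, Sirt1, Foxo3, Igf1r and Kl, in the dentate gyrus of young and aged mice. The genes were chosen by name. Their members were all CpGs inside the GENCODE M21 span of a gene or within 2 kb of it, which gave 648 of the 694379 CpGs in the table. A CpG within 1 kb of the start of any transcript of its gene counted as a promoter CpG (400), and every other one as a body CpG (248). There were 3 groups of 8 female C57BL/6JRj mice, and 1 library per mouse. Young STD mice were 3 months old and lived in standard housing (STD), and aged STD mice were 17 months old and lived in the same type of cage. Aged ENR mice were also 17 months old and had spent their last 3 months in an enriched environment (ENR), a large enclosure with tunnels and toys. ENR mice of one experiment lived together, so the enclosure and the enrichment cannot be told apart. Methylation was measured by reduced representation bisulfite sequencing (RRBS), in which fragments cut at CCGG sites are sequenced after bisulfite has converted unmethylated cytosines.

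Senescent cells leave the cell cycle for good. The Cdkn2a locus encodes p16Ink4a, which inhibits the kinases that inactivate the retinoblastoma protein Rb1, and, from a separate first exon, Arf, which stabilises the p53 protein encoded by Trp53. Cdkn2b (p15Ink4b) and Cdkn1a (p21) are further inhibitors of cell cycle kinases, and Tert is the catalytic subunit of telomerase. Sirt1, an NAD-dependent deacetylase, Foxo3, a transcription factor held in check by insulin and IGF signalling, Igf1r, the receptor for IGF1, and Kl, the co-receptor klotho, have been linked to lifespan in animals. Methylation of a CpG island at a gene's start is generally associated with silencing of that gene. The dentate gyrus consists largely of granule neurons, which no longer divide, and holds a small pool of dividing precursor cells.

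At the most CpG-dense start of each gene, mean levels were at most 3.04% in all genes but Tert, which had 8.16%. No promoter or body of a member passed the test in any comparison. By limma, an unadjusted p under 0.05 was found in 1 of 60 region tests, and in 5.49, 4.73 and 5.33% of the regions of all genes in aging, ENR and aged ENR against young STD. The lowest p at a single CpG belonged to an intronic CpG of Igf1r, which was at 18.8% for young STD, 4.40% for aged STD and 3.20% for aged ENR mice and missed the threshold after adjustment over all CpGs.

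Each value in the table is the percentage of methylated reads at 1 CpG on 1 strand in 1 mouse. Between 277 and 560 member CpGs had a value in a mouse (median 395), and only 2 had a value in all 24 mice. At least 5 mice of each group were measured at 160 member CpGs. Of 9453 mouse values at members, 79.0% were exactly 0 and 12.9% exactly 100. Even at the 97 member CpGs with a mean between 10 and 90%, 75.4% of the values were exactly 0 or 100, against 63.4% at such CpGs of the whole table. The number of reads behind a value is unknown, so no counting interval is given. DNA came from whole micro-dissected tissue, so a changed mix of cell types and a change within cells cannot be told apart. Promoters of the neuronal genes Prox1, Snap25 and Rbfox3 (3 of 4 listed measured) had means of 1.12 to 5.67% in the 3 groups. Those of astrocytes (3 of 4) had 18.4 to 39.2%, oligodendrocytes (1 of 4) 18.2 to 20.9%, microglia (2 of 4) 18.4 to 85.9% and endothelium (2 of 3) 0.559 to 11.4%. No marker promoter passed the test in any comparison, and the part of other cell types in the results was not tested. Over all CpGs it covered, aged STD replicate 5 had a mean of 23.6%, and the other 23 mice lay between 35.8 and 44.5%. Without this mouse, 41, 37 and 42 of 596 member CpGs in place of 39, 34 and 42 of 648 differed by over 25 points in aging, ENR and aged ENR against young STD (6.88, 6.21 and 7.05% without it, against 9.47, 8.77 and 8.45% of 649748 CpGs in all).

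Both first exons of Cdkn2a, the first exon of Cdkn2b and the start of Tert were covered by RRBS fragments, and their sequences are shown because the levels at these starts carry the result for each gene. They are RefSeq sequences of GRCm38 (mm10) in the direction of transcription, and capitals mark each CG with a measured cytosine on at least 1 strand. The Cdkn2a-201 (p16Ink4a) stretch lies at chr4:89281844-89282042 and spans the end of the first exon and the beginning of its intron. The Cdkn2a-202 (Arf) stretch is chr4:89294232-89294441, also exon and intron. The Cdkn2b stretch is chr4:89310705-89310797, in the first coding exon, and the Tert stretch is chr13:73627133-73627301, in the first coding exon and the intron behind it.
Cdkn2a-201: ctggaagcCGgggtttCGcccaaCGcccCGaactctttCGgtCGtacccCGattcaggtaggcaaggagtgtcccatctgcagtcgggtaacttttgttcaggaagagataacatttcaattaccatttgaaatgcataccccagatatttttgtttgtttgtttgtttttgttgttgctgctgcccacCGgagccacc
Cdkn2a-202: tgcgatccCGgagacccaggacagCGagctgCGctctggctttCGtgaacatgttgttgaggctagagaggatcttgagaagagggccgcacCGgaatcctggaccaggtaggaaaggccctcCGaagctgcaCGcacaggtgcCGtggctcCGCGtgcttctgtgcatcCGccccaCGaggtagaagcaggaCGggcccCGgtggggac
Cdkn2b: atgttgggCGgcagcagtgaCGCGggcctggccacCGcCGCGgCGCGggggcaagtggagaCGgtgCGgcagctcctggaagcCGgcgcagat
Tert: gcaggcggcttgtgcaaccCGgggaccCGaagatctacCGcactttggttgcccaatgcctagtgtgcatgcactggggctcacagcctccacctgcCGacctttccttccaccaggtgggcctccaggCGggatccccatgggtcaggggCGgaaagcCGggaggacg
Measured were 8 of 9, 14 of 16, 11 of 12 and 7 of 9 CG in these stretches. All 648 member cytosines lie at a CG of this reference on the strand given.

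Levels were low at every CpG-dense start, as the plot of levels by CpG observed/expected shows. This ratio compares the number of CG in the 500 bp on either side of a start with the number that its C and G content would give. The 8 starts with at least 3 measured CpGs and a ratio of 0.6 or more had mean levels of 0.974 to 3.04% (median 1.39%), and the 11929 such starts of all genes had a median of 1.67%. The 7 starts below 0.6 had a median of 8.16% and ranged from 1.64 to 98.0%, and the median over 10460 such starts was 21.9%. The lowest levels stood at Kl-201 (0.974%), Sirt1-202 (1.03%) and Rb1-201 (1.30%). Among starts with at least 3 measured CpGs, the highest were inside the genes, of transcripts not annotated as protein-coding, Trp53-204 (98.0%), Tert-203 (97.1%) and Sirt1-206 (93.5%). The promoter levels of Trp53, Tert, Sirt1 and Cdkn1a given below average over both kinds of start.

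**Figure D1:**
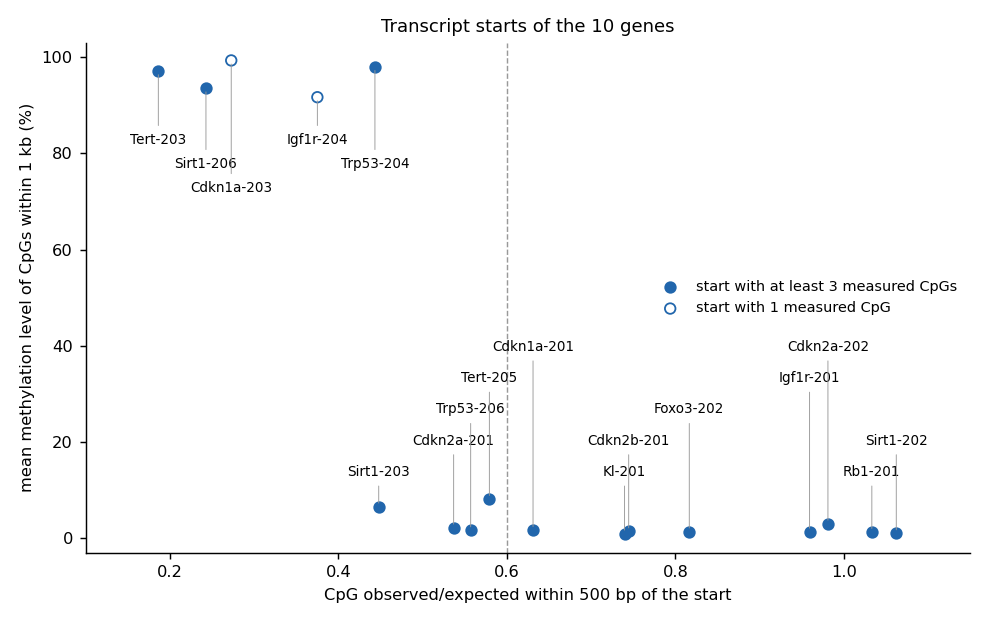
Mean methylation of all CpGs within 1 kb of a transcript start (percent, vertical axis) against CpG observed/expected around it (horizontal axis), 1 point per start of the 10 genes, with the dashed line at 0.6. All starts to the right of the line lie at or below 3.04%, while Tert-203, Sirt1-206, Trp53-204 and the 2 starts with 1 measured CpG lie above 90% on the left.

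Over single CpGs, 88.5% of the member promoter CpGs had a mean under 10%, compared with 81.4% of the promoter CpGs of all genes. Of the body CpGs, 54.8% of members and 19.0% of all genes were under 10%, and the medians were 7.63% and 75.2%. The body class here includes the flanks, where dense CpGs beside the starts of Foxo3, Igf1r and Trp53 were measured. In all, 292 member CpGs were at 0 in every mouse with a value, 227 of them in promoters. Where both strands of a CG were measured, their means differed by a median of 1.33 points at 43 promoter pairs and 2.41 points at 12 body pairs, and by no more than 20.96 points.

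At the locus of the INK4 and ARF inhibitors, the promoters of Cdkn2a and Cdkn2b had low levels in all 3 groups. A level per mouse and region was computed as the mean deviation of a mouse from the average of the 3 group means at its covered CpGs, added to the region's mean, so that mice covered at different CpGs can be compared. Such a level can fall below 0 or above 100. The Cdkn2a promoter (48 CpGs) lay between −0.45 and 5.05% among young STD mice with a median of 2.42%, between 0.73 and 10.8% among aged STD mice with a median of 2.13%, and between 0.71 and 7.14% among aged ENR mice with a median of 3.39%. All 3 ranges overlapped, and the highest level belonged to 1 aged STD mouse. The aging difference, aged STD minus young STD, was 0.27 points (SE 1.24, adjusted p = 0.994 by limma over all regions), and the ENR difference, aged ENR minus aged STD, was 0.38 points (SE 1.24, adjusted p = 0.994). With only CpGs of at least 5 mice per group they were 1.29 and −0.64 points, and with plain means over covered CpGs −0.053 and 0.82 points.

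At the p16Ink4a first exon and intron, the 8 CpGs printed above had means of 1.995% for young STD, 1.16% for aged STD and 3.47% for aged ENR mice. Averaged over mice instead, plain means of covered CpGs there were 13.7, 7.11 and 8.38%, with a median of 0 in every group. Young STD replicate 6 was at 95.7%, aged STD replicates 5 and 6 at 23.3 and 25.6% and aged ENR replicate 7 at 54.55%, each on 1 covered CpG. The 18 CpGs of the Arf fragment had means of 1.53, 4.13 and 5.63% in the same order. In this fragment the plain mean over a mouse's covered CpGs was 0 to 4.40% in 8 young STD mice (median 0.71%), 0 to 31.2% in 7 aged STD mice (median 2.88%) and 0.89 to 10.7% in 7 aged ENR mice (median 5.53%), with no test made of a fragment. The value of 31.2% came from the aged STD mouse with the highest promoter level, in which 6 of the 18 CpGs were covered. The CpG at chr4:89294297, intronic and on the minus strand 356 bp behind the Arf start, had the largest aging difference of the gene among CpGs with at least 5 mice per group. It was at 0 in all 5 young STD mice, at 100, 44.8 and 43.5% in 3 aged STD mice and 0 in the other 3, and at 25.4 and 14.6% in 2 of 6 aged ENR mice. The aging difference of 31.4 points (SE 14.8) had an adjusted p of 1.0 by limma and an exact permutation p of 0.242.

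The Cdkn2a body, mainly the 3′ flank (11 of 14 CpGs), had the largest difference relative to its error among the bodies in aging. Levels lay between −0.29 and 17.9% among young STD mice with a median of 1.34%, between 0.60 and 24.01% among aged STD mice with a median of 8.02%, and between −0.41 and 12.0% among aged ENR mice with a median of 5.20%. The groups overlapped. The aging difference was 5.81 points (SE 3.05, adjusted p = 0.888 by limma, exact permutation p = 0.131), and the ENR difference was −3.89 points (SE 3.05, adjusted p = 0.954). Without aged STD replicate 5 they were 3.58 and −1.79 points, and with only CpGs of at least 5 mice per group 9.12 and −7.36 points.

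At Cdkn2b, the 14 promoter CpGs lay in the first coding exon and had group means of 1.44% ± 2.31 (SD, n = 6) in young STD, 1.17% ± 2.33 (n = 7) in aged STD and 1.09% ± 1.77 (n = 5) in aged ENR mice. The Cdkn2b body rested on 8 CpGs and on 5, 4 and 5 mice, with means of 13.5% ± 14.8, 8.19% ± 11.4 and 18.4% ± 26.7, which include adjusted levels of −6.23% in 1 aged STD and 1 aged ENR mouse. High values of single mice stood in every group. In the fragment of the last exon (6 CpGs), young STD mice were at 100, 13.1, 8.81, 0 and 0%, aged STD mice at 100, 15.7, 7.18, 0 and 0%, and aged ENR mice at 75, 52.9, 0, 0 and 0%, and both values of 100% rested on 1 CpG. The ENR difference of 10.2 points had an SE of 12.3 and an adjusted p of 0.965 by limma.

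Cdkn1a, a target of p53, was measured at 9 CpGs. Its 5 intronic CpGs behind the Cdkn1a-201 start were at 0 in 3 of 4 young STD mice and at 20% in the other, and lay between 0 and 0.42% in 4 aged STD and 4 aged ENR mice. The remaining promoter CpG, in the UTR at the Cdkn1a-203 start, had a mean of 99.3%. The body, 3 intronic CpGs, was at 0 in most mice, with means of 2.78, 1.82 and 3.01% in the young STD, the aged STD and the aged ENR group (n = 6 each).

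**Figure D2:**
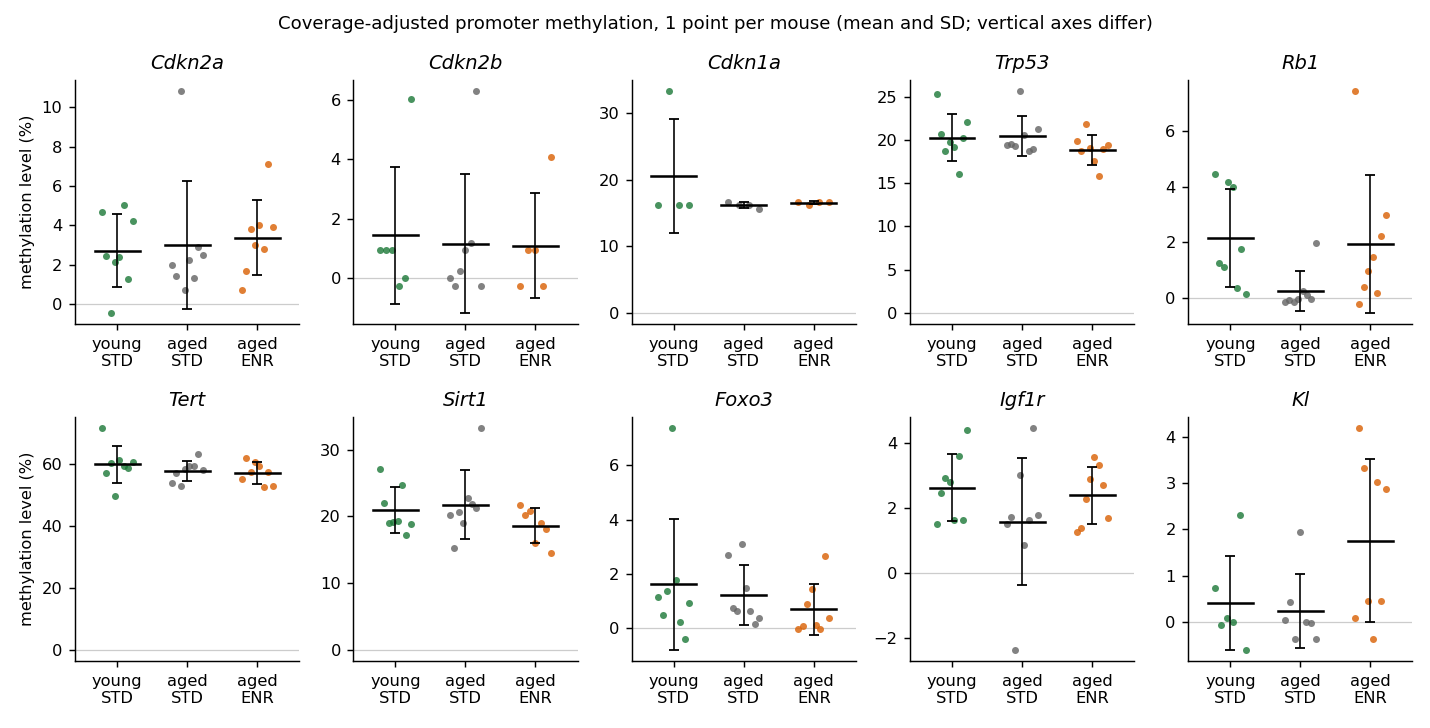
Coverage-adjusted promoter methylation (percent, vertical axes differing between panels) of the 10 genes in the young STD, the aged STD and the aged ENR group, 1 point per mouse, with horizontal lines at the group means and bars of 1 SD. The groups overlap in every panel, and single mice such as the aged STD mouse at 10.8% for Cdkn2a stand above their group.

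Trp53 and Rb1, tumour suppressors in the same pathways, had low levels around Trp53-206 and Rb1-201, and Trp53-204 was highly methylated. The 17 CpGs around Trp53-206 had means of 1.76% for young STD, 2.44% for aged STD and 0.71% for aged ENR mice, and the 4 CpGs at Trp53-204 had means of 97.5, 99.7 and 96.8%. The Trp53 promoter level lay between 16.03 and 25.4% among young STD mice with a median of 19.99%, between 18.7 and 25.7% among aged STD mice with a median of 19.5%, and between 15.8 and 21.8% among aged ENR mice with a median of 19.0%. Its body, of which 17 CpGs also lie in the neighbouring gene Wrap53, had means of 7.12, 6.88 and 5.87%. Neither region passed the test, with differences of −1.54 to 0.18 points and adjusted p-values of at least 0.921 by limma. With plain means over covered CpGs the ENR difference of the promoter was −5.64 points in place of −1.54.

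The Rb1 promoter (49 CpGs) had the lowest permutation p of any member region in aging. Levels lay between 0.15 and 4.46% among young STD mice with a median of 1.49%, between −0.14 and 1.99% among aged STD mice with a median of −0.051%, and between −0.22 and 7.45% among aged ENR mice with a median of 1.198%. In aged STD, 7 of 8 mice lay at or below 0.24%, where 1 of 8 young STD mice lay, and the groups overlapped. The aging difference was −1.92 points (SE 0.964), with an exact permutation p of 0.0141, unadjusted, and an adjusted p of 0.888 by limma. The ENR difference was 1.70 points (SE 0.964, exact permutation p = 0.0446, adjusted p = 0.954 by limma). Both differences share the aged STD mice. Aged ENR and young STD mice differed by −0.22 points (SE 0.964). Without aged STD replicate 5 the aging and ENR differences were −1.37 and 1.88 points, with adjusted p-values of 0.903 and 0.931 by limma. With only CpGs of at least 5 mice per group they were −0.47 and 2.53 points, and aged ENR against young STD was 2.07 points. The Rb1 body, 12 intronic CpGs of which 6 also lie in Lpar6 and 2 in Rcbtb2, was at 44.8, 47.1 and 44.9%, with aged STD mice spread from 14.1 to 95.2%. The level of 95.2% belonged to aged STD replicate 5, without which the aging difference was −6.99 in place of 2.31 points and the ENR difference 7.47 in place of −2.27 points. With plain means over covered CpGs the aging difference was −12.0 points.

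At Tert, the 5′ start and the rest of the gene stood at opposite ends. The 10 CpGs around the start had means of 13.4% for young STD, 5.90% for aged STD and 5.20% for aged ENR mice, and the 13 CpGs at Tert-203 had means of 96.2, 97.5 and 97.6%. Plain means over the covered CpGs of the 5′ fragment reached 41.0 and 28.6% in 2 young STD mice, against highest values of 15.1% among aged STD and 14.3% among aged ENR mice, and lowest values of 0 in every group. Of the Tert CpGs with at least 5 mice per group, the one with the largest aging difference, on the minus strand at chr13:73627263, lies in the intronic end of the Tert stretch printed above, 252 bp behind the Tert-202 start. It stood at 100, 95.8, 20, 0 and 0% in 5 young STD mice, at 2.70% in 1 and 0 in 4 aged STD mice, and at 26.5% in 1, 10.1% in 1 and 0 in 5 aged ENR mice. The aging difference of −42.6 points (SE 17.4) had an adjusted p of 1.0 by limma and an exact permutation p of 0.167.

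The Tert body (7 CpGs, 4 of them intronic and 3 in the 3′ flank) was the only member region with an unadjusted limma p under 0.05. Levels lay between 68.4 and 101.0% among 7 young STD mice with a median of 76.7%, between 71.9 and 100% among 6 aged STD mice with a median of 88.2%, and between 84.3 and 103.5% among 7 aged ENR mice with a median of 94.9%. The young STD mouse at 101.0% lay among the aged ENR mice, and the other 6 lay below the lowest of these. Aged ENR mice were 14.5 points above young STD mice (SE 4.79, exact permutation p = 0.0122, unadjusted), which did not pass after adjustment over all regions (adjusted p = 0.834 by limma). The aging difference was 6.48 points (SE 4.99) and the ENR difference 8.03 points (SE 4.99).

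Sirt1 and Foxo3 had unmethylated islands. At Sirt1-202 the 21 CpGs had means of 1.496, 1.59 and 0%, given for young STD first, aged STD second and aged ENR last. Of these, 15 CpGs rested on 6, 3 and 3 mice and the other 6 on 4, 3 and 3 mice, in the same order. The 9 CpGs at the Sirt1-203 start had means of 10.05, 7.14 and 2.57%. Over the covered CpGs there, the highest young STD mouse was at 50.9%, the highest aged STD mouse at 50% and the highest aged ENR mouse at 9.05%. The Sirt1 promoter as a whole lay between 17.2 and 27.1% among young STD mice with a median of 19.2%, between 15.2 and 33.2% among aged STD mice with a median of 20.98%, and between 14.5 and 21.6% among aged ENR mice with a median of 19.0%. The ENR difference was −3.18 points (SE 2.01, adjusted p = 0.954 by limma), and −17.1 points with plain means over covered CpGs. With these means the aging difference was 16.9 points in place of 0.85. The Sirt1 body rested on 5 CpGs and 3, 4 and 7 mice, with means of 41.2, 41.4 and 42.0%.

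Foxo3 was covered by 88 promoter CpGs, of which 66 were at 0 in every mouse with a value. Its promoter had means of 1.62% ± 2.42 (SD, n = 8) in young STD, 1.23% ± 1.10 (n = 8) in aged STD and 0.70% ± 0.95 (n = 8) in aged ENR mice. In young STD 1 mouse was at 7.37% and the others lay at or below 1.76%. The Foxo3 body had means of 6.18, 6.61 and 5.71%. No difference of these 2 region levels exceeded 0.92 points in size, and the adjusted p-values were at least 0.927 by limma. With only CpGs of at least 5 mice per group, the promoter differed by 1.71 points in aging and −1.71 points in ENR. With promoters of 2 kb the aging difference of the body was −3.99 points.

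Kl had an unmethylated start and a highly methylated body. The promoter, 30 CpGs in the UTR and first coding exon, lay between −0.60 and 2.30% among 6 young STD mice with a median of 0.043%, between −0.36 and 1.94% among 7 aged STD mice with a median of 0%, and between −0.36 and 4.18% among 8 aged ENR mice with a median of 1.67%. Of the aged ENR mice, 4 lay above every mouse of the other groups and 4 lay among them. The ENR difference was 1.52 points (SE 0.790, exact permutation p = 0.046, unadjusted, adjusted p = 0.954 by limma). The body was at 89.1% ± 13.8 (SD, n = 8), 93.0% ± 4.61 (n = 8) and 94.8% ± 4.501 (n = 8), with 1 young STD mouse at 58.0% and the others at 81.2% or more.

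**Figure D3:**
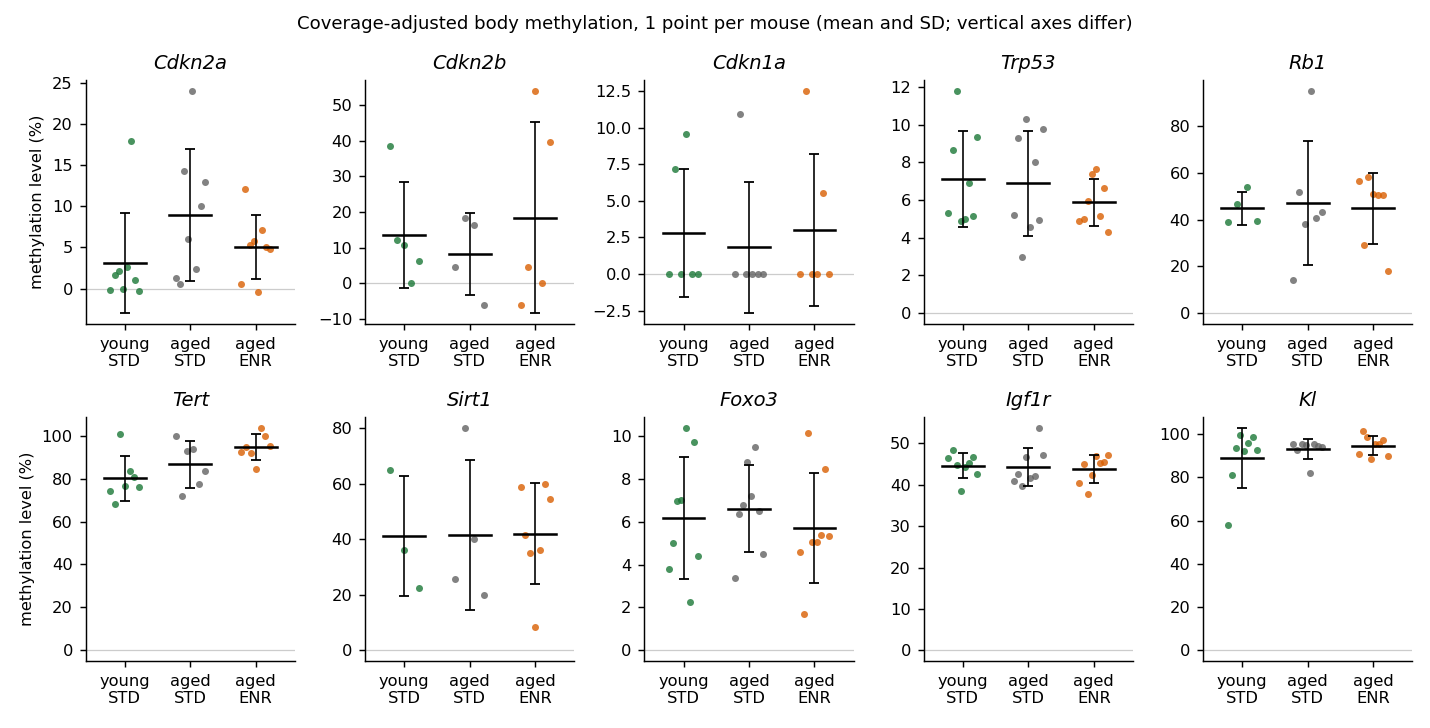
Coverage-adjusted methylation of body CpGs, flanks included (percent, vertical axes differing between panels), of the 10 genes in the 3 groups, 1 point per mouse, with lines at group means and bars of 1 SD. Kl and Tert have the highest mean levels and Cdkn1a, Cdkn2a, Foxo3 and Trp53 the lowest, and groups overlap in every panel.

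Igf1r, the longest of the genes, was measured in 26 separate fragments, defined as runs of CpGs less than 300 bp apart. Its start was unmethylated (83 CpGs, 1.55, 0.98 and 1.60% in the young STD, the aged STD and the aged ENR group). Along the body, 17 of 23 fragments had means between 10 and 90%, more than in any other member, as the plot along the gene shows. The body as a whole (82 CpGs) had levels of 44.6% ± 2.98 (SD, n = 8) in young STD, 44.4% ± 4.61 (n = 8) in aged STD and 43.8% ± 3.34 (n = 8) in aged ENR mice. The aging difference was −0.21 points and the ENR difference −0.54 points, each with an SE of 1.85. With only CpGs of at least 5 mice per group they were −3.33 and 1.73 points, and with plain means over covered CpGs −2.07 and −1.36 points. At single CpGs, intermediate means were often made of mice at 0 and mice at 100. At chr7:67964926 in an intron, the CpG with the largest aging difference of the gene among CpGs with at least 5 mice per group, young STD mice were at 100, 100, 60.2, 0 and 0%, aged STD mice at 100% in 1, 4.62% in 1 and 0 in 4, and aged ENR mice between 0 and 76.9% (n = 6).

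A further Igf1r CpG had intermediate values in every young STD mouse. It was chosen after its values were seen, as the member CpG with the smallest unadjusted p, and lies in an intron at chr7:68012261 on the minus strand, 59434 bp behind the Igf1r-201 start. Its surroundings (chr7:68012241-68012281, from RefSeq GRCm38, shown on the plus strand in the direction of transcription, with the measured CG in capitals) read as follows.
Igf1r: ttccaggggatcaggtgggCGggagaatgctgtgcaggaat
Every young STD mouse had methylated reads, from 9.69 to 28.4% (median 18.6%, n = 8). Aged STD mice ranged from 0 to 13.2% (median 2.49%, n = 8), with 3 at 0, and aged ENR mice from 0 to 9.76% (median 0%, n = 7), with 4 at 0. Only the lowest young STD mouse lay within the range of the aged mice. The aging difference was −14.4 points (SE 2.54) and aged ENR mice lay 15.6 points below young STD mice (SE 2.62). Both had an exact permutation p of 0.000622, unadjusted, and limma's adjusted p over all CpGs was 0.148 and 0.101, above the threshold of 0.05. The ENR difference was −1.197 points (SE 2.62, adjusted p = 1.0 by limma). The CpGs 21 bp before and 36 bp behind it, on the same strand, had means of 1.75, 0.34 and 2.09% and of 10, 6.56 and 11.3% (young STD first, aged STD second, aged ENR last).

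Opposite differences in aging and ENR of over 25 points were seen at 13 member CpGs (2.01%), and at 3.49% of all CpGs. Both differences contain the aged STD mice, so their opposite signs are not independent. Only 1 of the 13 had at least 5 mice in each group, at chr7:68118637 in an Igf1r intron. It was at 94.1 to 100% in 7 young STD mice and at 100% in 6 aged ENR mice, and in aged STD at 100% in 3 mice, 50% in 1 and 0 in 1. The aging difference of −29.2 points and the ENR difference of 30 points had exact permutation p-values of 0.303 and 0.364. At chr7:68088852, also an Igf1r intron and chosen after its values were seen as the CpG with the smallest unadjusted p in ENR, 4 aged STD mice lay between 56.2 and 100%, 5 young STD mice at 0 except 1 at 56.0%, and 4 aged ENR mice between 0 and 47.9%. Aged STD stood above both other groups without overlap, but the adjusted p was 1.0 for aging (67.6 points, SE 16.2) and for ENR (−58.8 points, SE 17.1) by limma. The exact permutation p-values were 0.0159 and 0.0286, unadjusted, the smallest that these numbers of mice allow.

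**Figure D4:**
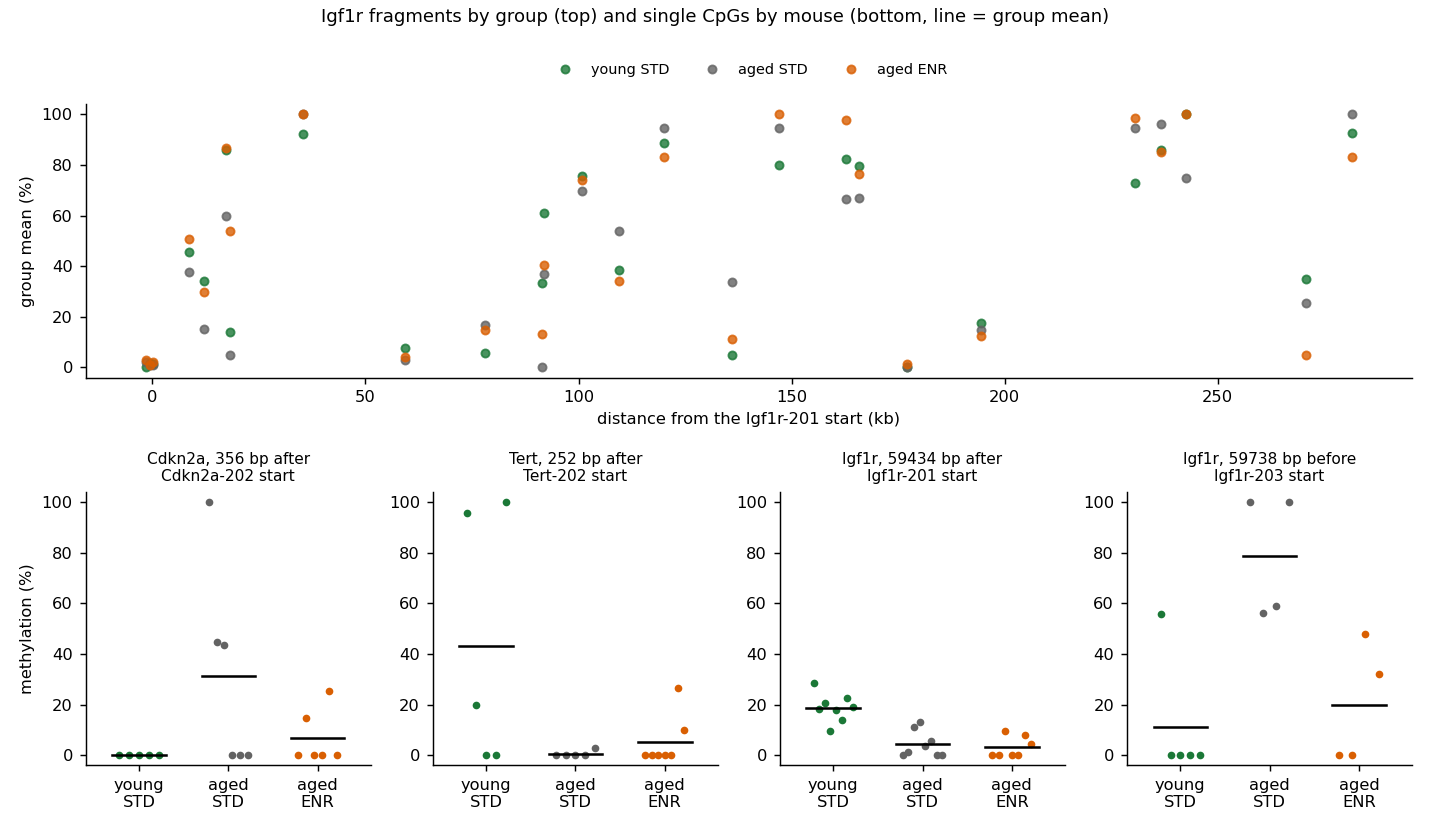
Top, group means of the 26 Igf1r fragments (percent) against distance from the Igf1r-201 start (kb). Bottom, methylation in each mouse (percent, line at the group mean) at CpGs of Cdkn2a, Tert and Igf1r. At the third CpG all 8 young STD mice lie between 9.69 and 28.4%, whereas the other CpGs mix mice at 0 with mice at up to 100%.

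For the other 7 genes, the CpG with the largest aging difference was again taken among those with at least 5 mice per group. At chr4:89307765 in the Cdkn2b intron, 3 of 6 aged STD mice (52.4, 27.1 and 11.8%), 1 of 8 young STD mice (34.3%) and 0 of 8 aged ENR mice had methylated reads. At chr11:69581015 in a Trp53 intron, 1 of 5 young STD mice was at 100% and the other 4 at 0. At chr14:73326425, upstream of Rb1, 2 of 8 aged STD mice (52.0 and 7.14%), 2 of 6 aged ENR mice (62.9 and 25.6%) and 0 of 5 young STD mice had methylated reads. These 3 CpGs lay at 0 in most mice. At chr10:63325992 in Sirt1 and chr5:150956005 in Kl, most mice were at 100%. Lower values stood at 46.2 and 11.1% in 2 young STD mice, 98.0% in 1 aged STD mouse and 57.1% in 1 aged ENR mouse at Sirt1, and at 61.8 and 0% in 2 young STD mice and 84.6% in 1 aged ENR mouse at Kl. At chr10:42274276 in Foxo3 and chr17:29095056 in Cdkn1a, few mice, at up to 50%, stood against zeros. The aging differences of these 7 CpGs ranged in size from 2.86 to 23.4 points, and each had an adjusted p of 1.0 by limma.

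**Figure D5:**
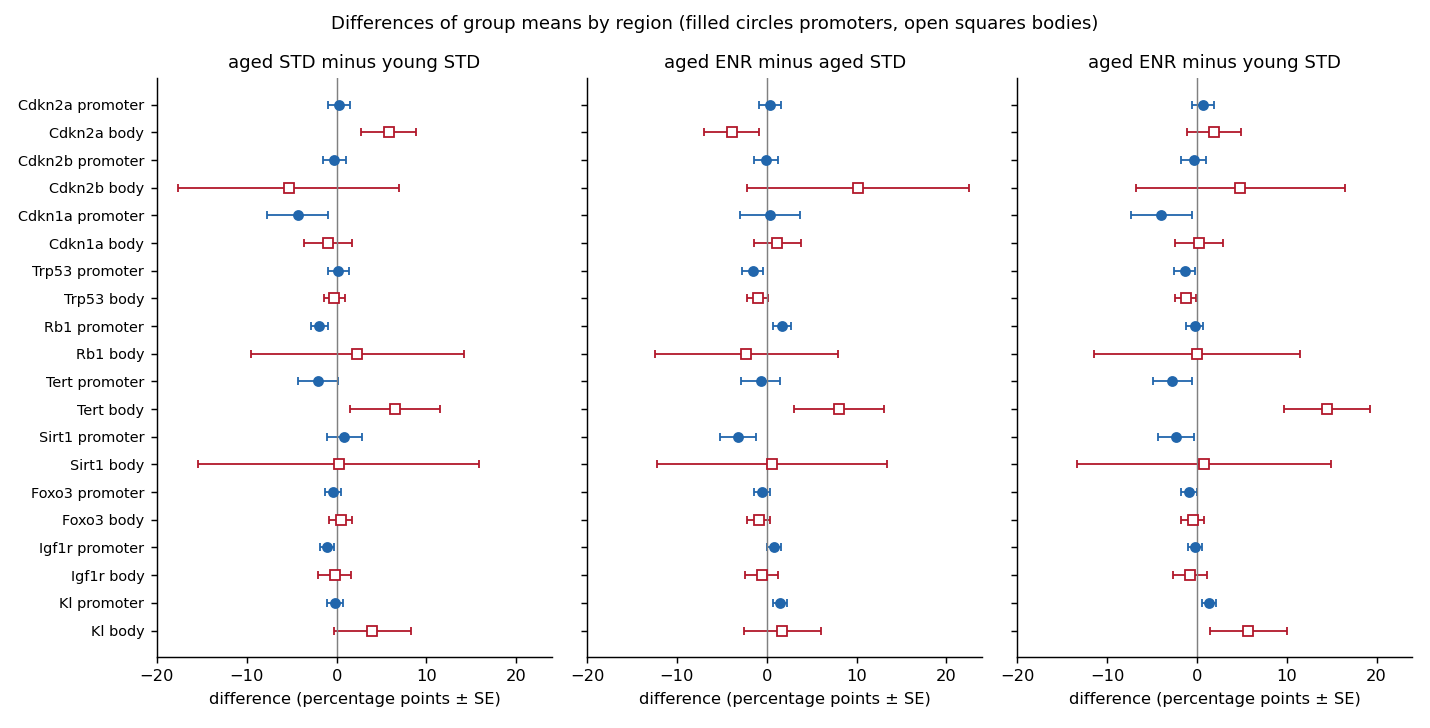
Differences of group means (percentage points, with bars of 1 SE from limma) for the 20 member regions in the 3 comparisons, filled circles for promoters and open squares for bodies. Promoter differences lie between −4.32 and 1.70 points, and the longest bars belong to the bodies of Cdkn2b, Rb1 and Sirt1.

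Across the 20 regions, 0 passed an adjusted p of 0.05 by limma in aging, where 0% of the 34939 promoter and body regions of all genes were called. The count was also 0 of 20 in ENR and in aged ENR against young STD, where 0.00859% of all regions were called in each. At an unadjusted p under 0.05 the counts were 0, 0 and 1 of 20, against 5.49, 4.73 and 5.33% of all regions. In aging, 3 member promoters had a higher and 7 a lower mean (median −0.33 points, against 0 over all promoters, 49.0% of which were higher), and 6 bodies had a higher and 4 a lower one (median 0.33 against −0.38 points, 45.6% of all bodies higher). In ENR the promoters were divided 5 and 5 (median 0.14 against −0.16 points, 45.4% higher) and the bodies 5 and 5 (median 0.028 against −0.30 points, 46.0% higher). For aged ENR against young STD, 2 promoters were higher and 8 lower (median −0.63 against −0.14 points, 45.5% higher), and 7 bodies were higher and 3 lower (median 0.53 against −0.70 points, 42.1% higher). The median size of an aging difference was 0.62 points in member promoters and 1.63 points in member bodies, and 1.39 and 3.25 points over all promoters and bodies.

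Single CpGs were counted by size, without a test. Each mouse had equal weight in its group mean, since read numbers were not available. The criterion was a difference of group means over 25 points, a threshold that the study applied together with a significance test. In aging, 39 of 648 member CpGs (6.02%) exceeded it, and 9.16% of all CpGs did. In promoters 10 of 400 exceeded it, with 4.47% of all promoter CpGs, and in bodies 29 of 248, with 14.3% of all body CpGs. Of the 39, 20 were higher and 19 lower in aged mice (4.15 and 5.01% of all CpGs). In ENR, the count was 34 (5.25%, against 8.33% of all CpGs), with 8 in promoters (3.92% of all promoter CpGs) and 26 in bodies (13.3% of all body CpGs). Of these, the aged ENR mean was the higher one at 16 and the lower one at 18 (3.82 and 4.51% of all CpGs). For aged ENR against young STD, it was 42 (6.48%, against 8.43%), with 7 in promoters (3.87%) and 35 in bodies (13.7%), 20 higher and 22 lower (3.43 and 4.99%). The Igf1r body held 16, 16 and 20 of these CpGs in the 3 comparisons, out of 82 measured, beside 14.3, 13.3 and 13.7% of all body CpGs. None in any comparison lay in the promoters of Cdkn2b (14 CpGs), Cdkn1a (6) and Kl (30) or in the bodies of Cdkn1a (3) and Sirt1 (5). The shares over all promoter CpGs were 4.47, 3.92 and 3.87%. Where every group had 5 or more mice (160 member CpGs), 5, 2 and 5 exceeded it (3.12, 1.25 and 3.12%, against 5.15, 4.72 and 4.82% of all such CpGs). By limma over all CpGs, 0 member CpGs were called in aging, ENR and aged ENR against young STD, while 0.0049, 0.00446 and 0.00504% of all CpGs were called. At an unadjusted p under 0.05 there were 9, 7 and 10 member CpGs, or 1.39, 1.08 and 1.54%, against 2.23, 1.9 and 2.18% of all CpGs.

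The pathways around these genes were read from 7 lists with 84 genes, of which 76 had a measured promoter or body (117 regions). None of the 117 passed an adjusted p of 0.05 by limma in any comparison. At an unadjusted p under 0.05 there were 4 higher and 0 lower in aging (3.42%), 2 higher and 2 lower in ENR (3.42%) and 0 higher and 3 lower in aged ENR against young STD (2.56%), and the shares over the regions of all genes were 5.49, 4.73 and 5.33%. Among cell cycle brakes and partners of Rb1 (15 of 15 genes measured), the promoter of Cdk2, a kinase that Cdkn1a inhibits, had the smallest unadjusted p in aging. Its means were 0.42% for young STD, 3.86% for aged STD and 1.03% for aged ENR mice (aging difference 3.44 points, SE 1.12, adjusted p = 0.755 by limma). Among telomerase and telomere proteins (11 of 11), it was the promoter of Terf1, which binds telomeric DNA, with an aging difference of 5.19 points (SE 1.81, adjusted p = 0.795 by limma). Among insulin, IGF and FOXO genes (16 of 16), it was the body of Igf1, the ligand of Igf1r, at 79.0, 95.4 and 84.7% (5, 6 and 4 mice, adjusted p = 0.878 by limma). In the lists of p53 regulators and targets (11 of 12), sirtuins and NAD supply (10 of 10), klotho and FGF23 signalling (7 of 7) and secreted senescence factors (6 of 13), no region had an unadjusted p under 0.05 in aging. The regions with the smallest p there were the Chek2 body (−4.84 points, SE 3.18), the Sirt6 promoter (25.9 points, SE 13.8), the Fgf21 body (9.63 points, SE 5.96) and the Igfbp7 body (−9.85 points, SE 7.97). The Sirt6 difference rested on 3 CpGs and on 4 young STD and 5 aged STD mice.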

How the data were processed

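Genomic DNA of micro-dissected dentate gyrus was profiled by RRBS in 24 mice. Per the labels, reads were trimmed with Trim Galore 0.4.0 and cutadapt 1.8.1, mapped to mm10 with Bismark 0.16.1 and summarised with methylKit 1.5.2, while the study's methods name other versions of Trim Galore and Bismark. The authors required 10 or more reads per CpG and mouse and 3 or more measured mice in every group, and deposited the percent of methylated reads per CpG, strand and mouse, with mice not pooled and read numbers not given in the sources used here. PCR copies of a molecule cannot be told from separate molecules, so a percent can rest on few molecules.

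Promoters, bodies and transcript starts came from GENCODE M21, and sequence from RefSeq GRCm38. Region levels were coverage-adjusted and needed at least 3 CpGs, at least 3 of them in a mouse, and at least 3 such mice per group. The percentages were fitted over all genes with limma 3.58.1 in R 4.3.3 as a group-means model of 24 mice, without a replicate block, separately for 694379 CpGs and 34939 regions, with Benjamini-Hochberg adjustment over each. For single member values an exact permutation test (two-sided) was used, whose smallest p for 8 against 8 mice is 0.0001554. The scripts (Python 3.11.15, scipy 1.17.1) were tested on simulated data. The mice are separate animals.

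CpGs named by rule were, among those with at least 5 mice per group, the one with the largest aging difference of each gene and those with opposite differences over 25 points. A further 2 Igf1r CpGs with the smallest unadjusted p were chosen after their values were seen. Members, lists and rules were chosen with earlier results of these data known.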

Additional observations from a re-analysis of the deposited data

Results flagged for a closer look

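A mouse is listed here where its gap to the nearest other mouse of its group, divided by the range of the group, exceeded Dixon's 95% critical value. This was so in 16 of 59 groups for region levels and in 17 of 32 groups for single CpGs. Chance gives about 1 in 20 for normally distributed values, which is no measure here, since 79.0% of the member values were exactly 0 and 12.9% exactly 100, and the CpGs were named for their large differences or small p. No explanation was tested.

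At the cell cycle inhibitors, the Cdkn2a promoter was at 10.8% in aged STD replicate 3 (others up to 2.90%) and the Cdkn2a body at 17.9% in young STD replicate 6 (others up to 2.65%). The Cdkn2b promoter was at 6.03% in young STD replicate 8, 6.30% in aged STD replicate 7 and 4.07% in aged ENR replicate 8. The Cdkn1a promoter was at 33.3% in young STD replicate 4 and 16.3% in aged ENR replicate 4 (others 16.7%), and the Cdkn1a body at 10.9% in aged STD replicate 4.

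Among the other region levels, aged STD replicate 4 was at 25.7% for the Trp53 promoter and aged STD replicate 8 at 33.2% for the Sirt1 promoter. The Rb1 promoter was at 1.99% in aged STD replicate 8 and 7.45% in aged ENR replicate 1. Young STD replicate 4 was at 7.37% for the Foxo3 promoter. For Kl, the promoter was at 1.94% in aged STD replicate 5, and the body at 58.0% in young STD replicate 1 and 81.9% in aged STD replicate 5.

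At single CpGs, the mice apart from their group were at 34.3% (young STD replicate 1) at the Cdkn2b CpG, at 32.8% (aged STD replicate 4) and 37.5% (aged ENR replicate 4) at the Cdkn1a CpG, and at 100% (young STD replicate 1) and 6.52% (aged ENR replicate 2) at the Trp53 CpG. Aged STD replicate 8 was at 52.0% at the Rb1 CpG. At the Tert CpG they were at 2.70% (aged STD replicate 6) and 26.5% (aged ENR replicate 7), and at the Sirt1 CpG at 98.0% (aged STD replicate 6) and 57.1% (aged ENR replicate 8). The Foxo3 CpG was at 9.09% in young STD replicate 5 and 50% in aged STD replicate 4. At Igf1r they were at 100% (aged STD replicate 8, 67964926), 94.1% (young STD replicate 2, 68118637) and 56.0% (young STD replicate 2, 68088852). The Kl CpG was at 0 in young STD replicate 1 and 84.6% in aged ENR replicate 8.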

How the results depend on the processing

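By limma, 0 member regions passed in each of the 5 alternatives to the region fit, with smallest adjusted p-values of 0.846 to 1.0, and 0 to 4 of the 21080 to 34939 regions of all genes did. The counts of member CpGs past 25 points depended on the number of mice. At CpGs with at least 5 mice per group (160 of 648) they were 5 in aging, 2 in ENR, 5 in aged ENR against young STD and 1 with opposite differences (5.15, 4.72, 4.82 and 1.64% of all such CpGs). Over 15 points they were 95, 82, 100 and 36 (20.6, 19.4, 19.5 and 9.52% of all CpGs), and with group medians 23, 27, 31 and 12 (9.12, 8.44, 8.87 and 4.22%). Member CpGs called by limma numbered 0 on the arcsine scale, with robust and trended moderation, with at least 5 mice per group and without aged STD replicate 5, where 0 to 39 of all CpGs were called. Same-numbered mice of different groups did not deviate together (mean correlation −0.00387 over 24 pairs and 8628 CpGs, range −0.0405 to 0.0206, against a mean of 0.00052 for other numbers). This shows no pairing in the values, but cannot tell whether same-numbered mice were handled together. The replicate block called 1 member CpG in ENR and 1 in aged ENR against young STD, the Igf1r CpG at 68072926 (11 mice, adjusted p 0.000347 and 0.000414, against 1.0 without the block), and 600, 533 and 503 of all CpGs in place of 34, 31 and 35. At this CpG the block gave −100 points in both comparisons (SE 0.067 and 0.095), against −50.7 points without it, so almost no spread was left to the fit. The smallest adjusted p of any member CpG in aging was 0.131 to 0.739 over the alternatives.

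Signs of differences that were not past the threshold turned, or the difference became 0, in the following cases, and the cause was not tested. With plain means over covered CpGs (6 of 60), the aging difference was −0.053 points for the Cdkn2a promoter, 0.092 for the Cdkn2b promoter and −12.0 for the Rb1 body, aged ENR against young STD was 4.17 for the Cdkn1a promoter and −14.9 for the Rb1 body, and ENR was −1.81 for the Sirt1 body. With only CpGs of at least 5 mice (9 of 39), ENR was −0.64 for the Cdkn2a promoter and 1.73 for the Igf1r body, aging was −0.33 for the Trp53 promoter, 1.31 for the Trp53 body and 1.71 for the Foxo3 promoter, and aged ENR against young STD was 0.11 for the Trp53 body, 2.07 for the Rb1 promoter, 0 for the Foxo3 promoter and 0.17 for the Foxo3 body. With promoters of 2 kb (4 of 54), aging was 0.0063 for the Foxo3 promoter and −3.99 for the Foxo3 body, ENR was 1.70 for the Foxo3 body, and aged ENR against young STD was 0.18 for the Igf1r promoter. With the replicate block (9 of 60), aging was 0.75 for the Cdkn2b body, 0.40 for the Cdkn1a body and −2.21 for the Rb1 body, ENR was 0.89 for the Cdkn2b promoter, −15.6 for the Cdkn2b body, −3.34 for the Cdkn1a promoter and 0.55 for the Rb1 body, and aged ENR against young STD was −14.8 for the Cdkn2b body and −1.66 for the Rb1 body. Without aged STD replicate 5 (5 of 60), aged ENR against young STD was 0.52 for the Rb1 promoter, aging was −6.99 for the Rb1 body and 0.16 for the Igf1r body, and ENR was 7.47 for the Rb1 body and −0.059 for the Kl body. Of the differences that kept their sign, 24 of 54 changed by over 1.5 times with plain means, 18 of 30 with CpGs of at least 5 mice, 16 of 50 with 2 kb promoters, 8 of 51 with the block and 12 of 55 without aged STD replicate 5. Leaving out each mouse in turn was planned for called CpGs and regions, of which there were 0, and was not run. Only 13 of the 20 regions could be computed with CpGs of at least 5 mice, and 18 of 20 with 2 kb promoters. The read depth behind a percent is unknown. SEs of region differences were 0.774 to 4.29 points with 8 mice in every group and up to 15.6 in the Sirt1 body with fewer.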
